A study of Mus musculus with 2 samples.

Results

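Membrane fusion in cells is carried out by SNARE proteins, and 47 of the 32285 genes counted in these libraries encode SNAREs or their direct regulators. The rule for them used the gene symbol and no measured value, but it was set with earlier results of these data known. It takes in the syntaxins (Stx), the SNAP family, the VAMPs, Vti1, Gosr, Bet1, Sec22 and Ykt6 genes, the syntaxin-binding proteins (Stxbp), Unc13d, and Nsf with its adaptors Napa and Napg. By role they are 13 Qa SNAREs, 4 Qb SNAREs, 4 Qc SNAREs, 4 SNAP family genes that carry both a Qb and a Qc helix, 12 R SNAREs, 7 binding and priming proteins, and 3 disassembly genes. The cells were immune cells that had entered the gums of C57BL/6 mice in a periodontitis model, with 1 library from WT mice and 1 from mice whose genotype label is Otud1-/-. Both were made with the 10x Genomics 3′ single-cell method, in which each captured transcript adds 1 unique molecular identifier (UMI) near its 3′ end, so that levels are not scaled by gene length. OTUD1 is a deubiquitinase, and the study's title links it to protein transport in neutrophils. How many mice were pooled, their age and sex, how periodontitis was induced, whether both groups received it alike, and how Otud1 was disrupted are not given in the sources used here.

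A SNARE complex forms when a vesicle's R SNARE zips together with Qa, Qb and Qc helices on the target membrane and pulls the membranes into contact. Syntaxin-binding proteins and Unc13d guide this assembly, and the ATPase NSF with its adaptors takes the spent complex apart for reuse. In neutrophils, NK cells and cytotoxic T cells such complexes drive the release of preformed granules. Inherited loss of STX11, STXBP2 or UNC13D in humans impairs this release and causes a severe hyperinflammatory disease.

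The WT library held 13267 barcodes and 44878537 UMIs, and the library labelled Otud1-/- held 8109 barcodes and 44083735 UMIs. After filters on genes and mitochondrial RNA and removal of likely doublets, there remained 11414 WT cells, whose median depth was 2156 UMIs, and 6486 cells of the other library, whose median depth was 4214.5. Otud1 itself stood at 18.6 CPM in all WT barcodes and 33.0 CPM in the library labelled Otud1-/-, which goes against the label, although 3′ tags may lie outside the disrupted stretch. CPM are counts of UMIs scaled to a common total, that of the stated cells. The WT library held 14449 Xist and 6696 Y-linked UMIs and the other library 5 and 10368, so the libraries also differed in sex-linked transcripts. The libraries had 37 cell barcodes in common. With 1 library per genotype no test of the genotype is possible, all intervals below are 95% intervals of counting error only, and the library labelled Otud1-/- is compared with WT without a replicate check. Clustering without the 47 genes gave 12 classes named by resemblance to marker sets, of which 6 had at least 100 cells in both libraries: neutrophil (902 WT and 861 cells), monocyte/macrophage (2280 and 637), dendritic (1033 and 361), B (2052 and 2833), T (2018 and 917) and NK (533 and 210).

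The promoters of the 3 genes with the most neutrophil transcripts are shown because the results turn on them. Stx11 (ENSMUSG00000039232) lies at chr10:12938209-12964298 on the minus strand, Snap23 (ENSMUSG00000027287) at chr2:120567671-120601255 on the plus strand, and Vamp8 (ENSMUSG00000050732) at chr6:72385223-72390703 on the minus strand of GRCm38. No other annotated gene overlaps any of them. The sequences run 5′ to 3′ on the gene's strand, are taken from RefSeq (GRCm38.p6), start 250 bases before the RefSeq transcript start and stop before the first annotated transcribed base. They cover chr10:12964299-12964509 (minus) for Stx11, chr2:120567421-120567670 (plus) for Snap23 and chr6:72390704-72390917 (minus) for Vamp8. Capitals mark matches to the GC box GGGCGG in Stx11, to CCAAT in Snap23 and to the C/EBP letters TTGCNNAA in Vamp8, on either strand.
Stx11: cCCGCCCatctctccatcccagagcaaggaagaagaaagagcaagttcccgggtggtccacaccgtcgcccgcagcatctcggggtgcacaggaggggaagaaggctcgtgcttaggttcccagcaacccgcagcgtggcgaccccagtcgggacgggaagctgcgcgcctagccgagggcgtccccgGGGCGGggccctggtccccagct
Snap23: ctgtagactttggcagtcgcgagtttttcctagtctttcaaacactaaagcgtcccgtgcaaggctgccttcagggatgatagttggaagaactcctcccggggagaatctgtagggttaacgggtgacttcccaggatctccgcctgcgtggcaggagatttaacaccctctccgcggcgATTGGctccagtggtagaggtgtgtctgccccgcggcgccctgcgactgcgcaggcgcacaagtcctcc
Vamp8: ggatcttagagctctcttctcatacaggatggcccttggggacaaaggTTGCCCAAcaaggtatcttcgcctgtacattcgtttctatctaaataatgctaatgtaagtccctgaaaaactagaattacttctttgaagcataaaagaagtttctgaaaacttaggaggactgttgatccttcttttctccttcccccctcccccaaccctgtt
In the full windows, which end 50 bases after the start, GC content was 71.0% for Stx11, 60.3% for Snap23 and 46.7% for Vamp8, with 27, 25 and 5 CpG dinucleotides. RefSeq windows were found for 39 of the 47 genes. The 45 windows of these genes had a median GC content of 62.3%, against 52.7% over all 32851 windows kept. GGGCGG was present in 64.4% of the members' windows and 35.7% of all windows, CCAAT in 42.2% and 37.4%, TTGCNNAA in 17.8% and 10.8%, and the ETS core CCGGAAG in 15.6% and 8.86%. The NRF1 letters GCGCATGC were present in 13.3% and 2.71%, the CLEAR E-box CACGTG in 13.3% and 7.15%, the CRE letters TGACGTCA in 6.67% and 1.79%, and the AP-1 letters TGANTCA in 6.67% and 7.81%. No member window held the PU.1 core GAGGAAGT, which was in 3.2% of all windows. These matches describe letters only. Stx11 and Snap23, whose transcripts were the most concentrated in neutrophils, had no motif of the 9 searched in common within their windows.

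Of the 47 genes, 30 were measured in at least 1 of the 6 classes and 19 in all 6, where measured means a mean of at least 20 CPM over both libraries and at least 30 UMIs in total. Vamp9 had no UMI in any of the 6 classes. The neuronal genes Snap25 and Stx1a did not exceed 3.41 CPM in any of them. Among these classes the summed level of the 47 genes was highest in neutrophils and monocyte/macrophages, at 1632 CPM in WT and 2093 CPM in the library labelled Otud1-/- for neutrophils and 1610 and 1877 CPM for monocyte/macrophages. It was 1547 and 1595 CPM in dendritic cells, 1326 and 1379 in NK cells, 1290 and 1304 in B cells, and 1249 and 1229 in T cells. Of the neutrophil sum, Stx11 gave 172 and 452 CPM and Snap23 232 and 464 CPM. Without them that sum would not be the highest, nor higher in the library labelled Otud1-/- than in WT. Outside the 6 classes the summed level was 1742 and 1738 CPM in plasmacytoid dendritic cells and 1658 and 1647 in mast cell/basophil cells. The class with the highest level was the same in both libraries for 21 of the 30 measured genes: 5 in neutrophils, 5 in NK cells, 4 in B cells, 3 in monocyte/macrophages, 3 in dendritic cells and 1 in T cells. Its interval lay above that of the second-highest class in both libraries only for Stx11, Snap23, Vamp5, Nsf, Snap29, Vamp8, Stx3 and Gosr2. For none of the 5 NK cell genes was this so. The like share over all genes was not computed.

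**Figure D1:**
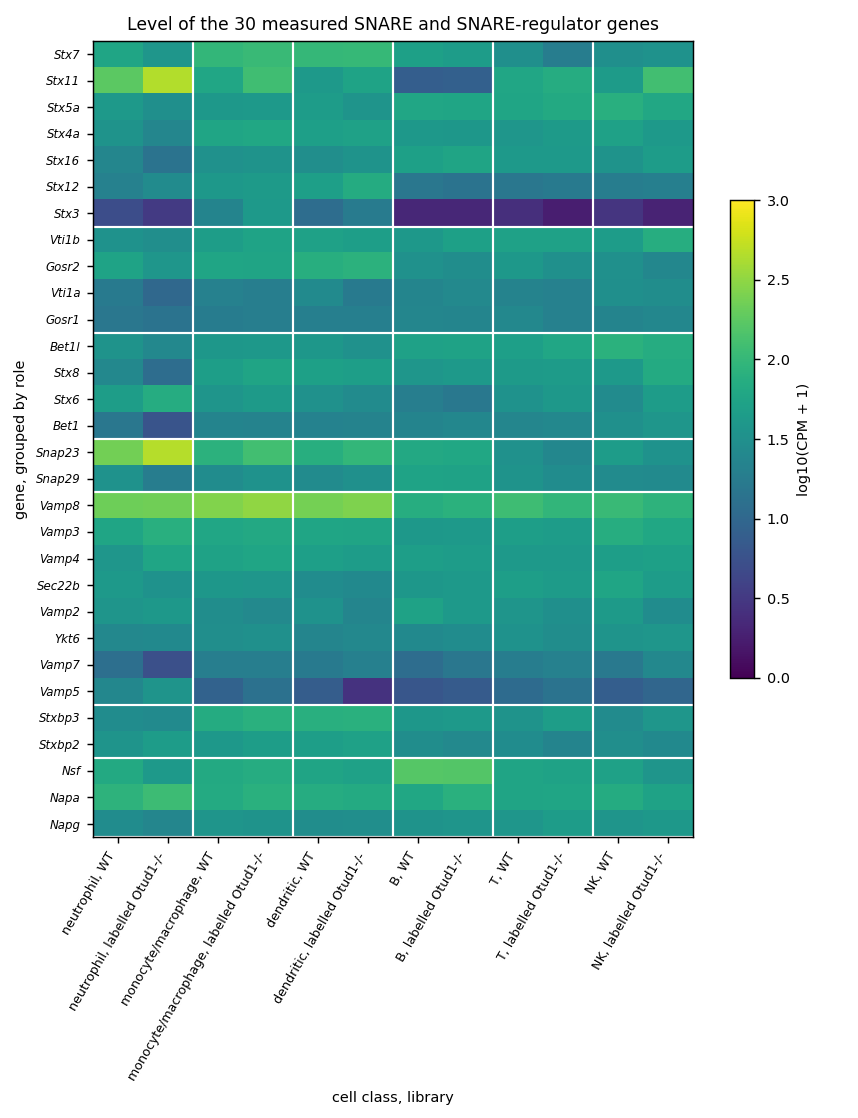
Level of the 30 genes measured in at least 1 class (vertical axis, grouped by role) in 6 cell classes of both libraries (horizontal axis), as log10(CPM + 1) of each class total. Stx11 and Snap23 are brightest in the neutrophil columns, Nsf in the B columns, and Vamp8 is high in the neutrophil, monocyte/macrophage and dendritic columns.

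Among the Qa SNAREs, Stx11 had the widest range between classes. In WT it stood at 172 CPM in neutrophils, 59.2 in monocyte/macrophages, 57.9 in T cells, 43.7 in NK cells, 41.1 in dendritic cells and 6.82 in B cells. In the library labelled Otud1-/- it stood at 452 CPM in neutrophils, 121 in NK cells, 120 in monocyte/macrophages, 70.3 in T cells, 53.4 in dendritic cells and 7.31 in B cells. Neutrophils were thus highest and B cells lowest in both libraries, with a ratio of 25.3 in WT and 61.9 in the other library. The WT intervals of monocyte/macrophages (53.8 to 65.0 CPM) and T cells (52.1 to 64.1) overlapped, as did those of NK cells (101 to 145) and monocyte/macrophages (112 to 128) in the library labelled Otud1-/-. A Stx11 UMI was found in 1.95% of WT B cells and 2.72% of B cells of the other library, a level that free RNA could give, against 24.5% and 62.4% of neutrophils.

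The T class was not uniform for Stx11. Its cluster 6, led by Ctla4, Ikzf2 and Tnfrsf4, held 98.7 CPM in WT and 138 CPM in the library labelled Otud1-/-. Cluster 13, led by Trdc, Il17a and Tcrg-C1, held 104 and 153 CPM. Cluster 4, led by the naive T cell genes Lef1 and Tcf7, held 8.87 and 3.46 CPM, close to the level in B cells. Of the 3 T clusters with at least 100 cells in both libraries, the one led by naive-type genes was thus far below the others.

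The other syntaxins had flatter profiles. Stx7, a Qa SNARE of late endosomes, stood at 95.7 CPM in WT monocyte/macrophages and 107 CPM in the other library, at 99.5 and 102 CPM in dendritic cells, and at 30.6 and 17.8 CPM in T cells. Its highest level lay outside the 6 classes, in plasmacytoid dendritic cells, with 255 CPM in 595 WT cells and 221 CPM in 86 cells of the library labelled Otud1-/-. Stx3, which serves exocytosis at the plasma membrane, was measured in monocyte/macrophages alone among the 6 classes (21.4 and 39.5 CPM) and was below 5 CPM in neutrophils (4.13 and 2.19). Mast cell/basophil cells held more of it, at 156 CPM in 121 WT cells and 89.6 CPM in 21 cells. Stx4a, a plasma membrane syntaxin, ranged only from 33.5 to 57.0 CPM over the WT classes, and from 22.6 in neutrophils to 59.9 CPM in monocyte/macrophages in the other library. Stx12, found on recycling endosomes, was highest in dendritic cells (48.7 and 69.2 CPM) and lowest in B cells (14.3 and 13 CPM). Stx5a and Stx16, of the Golgi, were both lower in neutrophils than in B cells in both libraries: 40.3 and 29.8 against 58.8 and 56.3 CPM for Stx5a, and 22.7 and 12.9 against 49.3 and 55.5 CPM for Stx16. Stx2, Stx17, Stx18 and Stx19 did not reach 20 CPM in any of the 6 classes.

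Snap23, which supplies 2 of the Q helices at the plasma membrane, was highest in neutrophils in both libraries. In WT it stood at 232 CPM in neutrophils, 84.1 in monocyte/macrophages, 75.3 in dendritic cells, 63.1 in B cells, 44.6 in NK cells and 31.5 in T cells. The library labelled Otud1-/- gave the same order, with 464, 122, 96.5, 59.9, 33.3 and 23.2 CPM. Its values in T and NK cells of that library were under 10% of the neutrophil level and may be RNA of other cells. Snap29, which serves autophagosome fusion, was highest in B cells instead (53.9 and 52.3 CPM), and Snap47 stayed below 15 CPM in all 6 classes.

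Vamp8, an R SNARE of endosomes and secretory granules, had the highest level of any of the 47 genes in monocyte/macrophages (269 CPM in WT and 316 in the library labelled Otud1-/-), dendritic cells (234 and 265) and T cells (115 and 93.4). It reached 218 and 220 CPM in neutrophils, 107 and 87.1 in NK cells, and 73.7 and 80.4 in B cells. Vamp3, of recycling endosomes, ranged from 38.4 CPM (B cells) to 73.7 CPM (NK cells) in WT, and from 40.3 (B cells) to 76.8 CPM (neutrophils) in the other library. Vamp2, a partner of plasma membrane syntaxins, was highest in B cells, at 52.9 and 40.1 CPM. Vamp7, of lysosome-related compartments, was low, between 10.8 and 18.4 CPM in the WT classes and between 4.39 (neutrophils) and 24.5 CPM (NK cells) in the other library. Vamp5 was measured only in neutrophils, at 23.2 and 34.8 CPM, and its other values lay at or below 13 CPM.

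The Qb and Qc genes mostly serve traffic between the endoplasmic reticulum, Golgi and endosomes. Gosr2 was highest in dendritic cells (75.0 and 84.7 CPM) and Bet1l in NK cells (81.5 and 70.5 CPM). Stx6, of the trans-Golgi network, was highest in neutrophils, at 45.9 and 70.5 CPM, and lowest in B cells, at 18.1 and 15.1 CPM. Bet1, which acts between endoplasmic reticulum and Golgi, was between 20.6 and 36.2 CPM in 5 of the 6 classes and at 14.4 and 5.02 CPM in neutrophils. Plasma cells, which secrete antibody, held the most Bet1: 85.6 CPM in 288 WT cells and 67.3 CPM in 87 cells of the other library. The same plasma cells were low in Snap23 (9.6 and 12.9 CPM) and in Nsf (28.8 and 23.7 CPM).

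Of the binding and priming genes, Stxbp3 was highest in dendritic cells (76.5 and 78.6 CPM) and monocyte/macrophages (69.1 and 79.5 CPM) and stood at 27.9 and 26.0 CPM in neutrophils. Stxbp2, a partner of STX11, was flatter, from 27.9 (T cells) to 47.5 CPM (dendritic cells) in WT and from 21.8 to 51.3 CPM in the same classes of the other library. Unc13d, which primes granules for release, stayed between 8.21 and 19.8 CPM in every class and was measured in none. Stxbp6 was seen mainly in monocyte/macrophages (14.9 and 24.2 CPM) and dendritic cells (9.68 and 15 CPM), and no UMI of it was found in NK cells of either library. Nsf was highest in B cells, at 162 CPM (interval 152 to 172) in WT and 156 CPM (148 to 163) in the library labelled Otud1-/-, and between 35.2 and 70.4 CPM in the other 5 classes. Its adaptor Napa was highest in neutrophils, at 86.2 and 114 CPM. The B cell excess of Nsf was therefore not shared by Napa, which stood at 60.4 and 78.2 CPM in B cells.

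**Figure D2:**
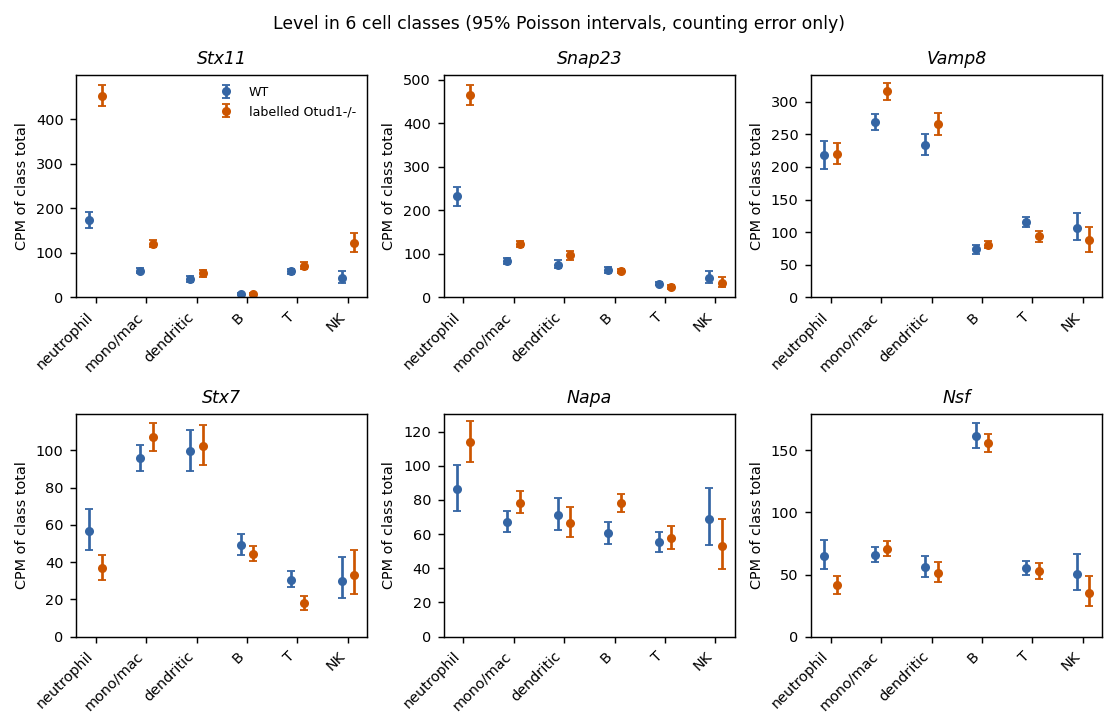
Level (CPM of the class total, linear axis from 0, with 95% Poisson intervals of counting error) of Stx11, Snap23, Vamp8, Stx7, Napa and Nsf in 6 cell classes, WT in blue and the library labelled Otud1-/- in orange. The neutrophil points lie at 172 and 452 CPM for Stx11, at 232 and 464 CPM for Snap23, and at 218 and 220 CPM for Vamp8.

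The main comparison was between neutrophils of the 2 libraries, since the study's title concerns protein transport in that cell. Stx11 was 2.62-fold higher in the library labelled Otud1-/- (1443 UMIs in 861 cells against 334 in 902), a log2 ratio of 1.39 (1.22 to 1.57). Snap23 was 2.0-fold higher (1481 against 449 UMIs), a log2 ratio of 1.0 (0.85 to 1.16). The neutrophil intervals did not overlap for either gene: 429 to 476 against 154 to 192 CPM for Stx11, and 441 to 489 against 211 to 254 CPM for Snap23. Vamp8, at a like level in WT, had a log2 ratio of 0.02 (-0.16 to 0.19). After every cell was thinned to 1000 UMIs, for which 166 WT neutrophils and 39 of the others were too shallow, a Stx11 UMI was found in 13.3% of WT neutrophils (10.9% to 16.0%) and 34.3% of the others (31.1% to 37.7%). The thinned share for Snap23 was 19.4% and 38.3%, and for Vamp8 16.6% and 19.5%.

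In neutrophils 23 of the 47 genes were measured. By a minimum ratio of 1.5-fold, 4 of these were higher and 3 lower, where 16.3% of the 4264 genes measured in neutrophils were higher and 32.6% lower by the same rule. The members' median log2 ratio was 0.02, against -0.18 over all measured genes, and 14 of the 23 lay above that median. The 4 higher genes were Stx11, Snap23, the trans-Golgi R SNARE Vamp4 (37.2 and 57.7 CPM, log2 ratio 0.63, 0.23 to 1.05) and Stx6 (45.9 and 70.5 CPM, 0.61, 0.26 to 0.99). The 3 lower genes were Snap29 (33.0 and 17.6 CPM, -0.89, -1.46 to -0.37), Nsf (65.0 and 41.4 CPM, -0.65, -1.02 to -0.29) and Stx7 (56.8 and 36.7 CPM, -0.62, -1.02 to -0.24). Stx4a came next, at 33.5 and 22.6 CPM (-0.56, -1.08 to -0.06). Just short of the fold on the other side was Vamp5, with a log2 ratio of 0.57 (0.07 to 1.12). By role, the counts of higher and lower genes were 1 and 1 of 5 measured Qa SNAREs, 0 and 0 of 2 Qb, 1 and 0 of 2 Qc, 1 and 1 of 2 SNAP family genes, 1 and 0 of 7 R SNAREs, 0 and 0 of 2 binding proteins, and 0 and 1 of 3 disassembly genes. In the whole class Stx11 and Snap23 had the 2 highest ratios, followed by Vamp4 at 0.63. Sec22c, chosen after its values were seen and below the measured minimum, had 9 UMIs in WT and 71 in the other library (4.64 and 22.3 CPM).

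How the neutrophil totals were scaled changed the counts. With trimmed-mean (TMM) factors the log2 ratio of genes measured both ways moved up by a median of 0.56, and the median of all genes became 0.36. Of 27 members then measured 12 were higher and 1 lower, where 39.1% of 4723 genes were higher and 17.2% lower. With the median of gene-wise ratios the move was 0.18. Of 23 members 7 were higher and 1 lower, where 22.9% of 4405 genes were higher and 27.1% lower. On the TMM scale the log2 ratio was 1.96 for Stx11, 1.57 for Snap23, 0.58 for Vamp8, -0.06 for Stx7, -0.09 for Nsf and -0.34 for Snap29. Relative to the median of all genes, Stx11 was 1.57 higher and Snap23 1.18 higher.

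**Figure D3:**
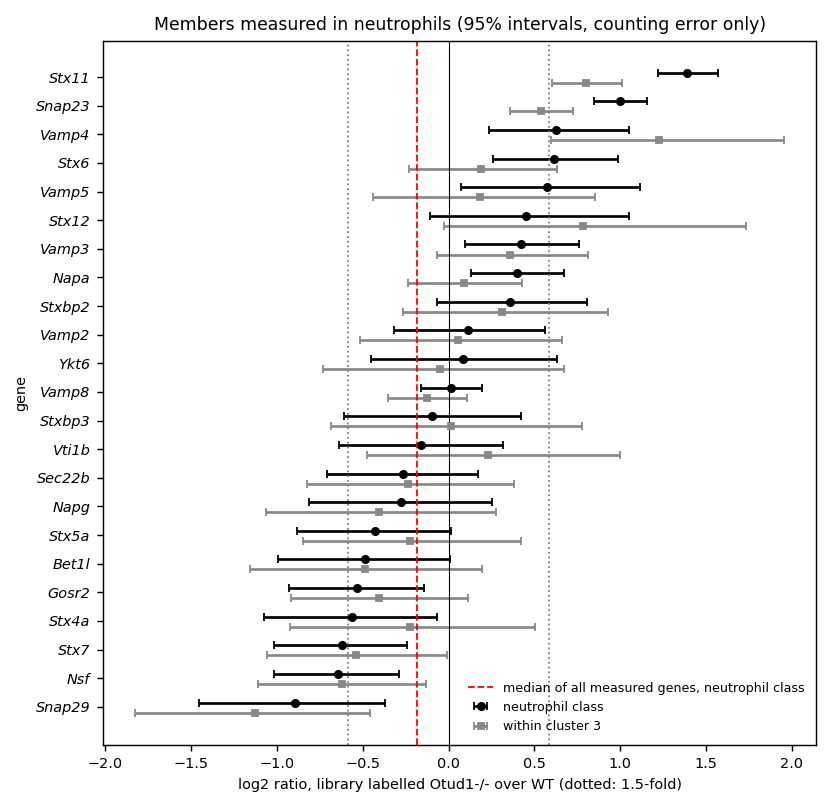
Log2 ratio (library labelled Otud1-/- over WT, with 95% counting intervals) of the 23 members measured in neutrophils, for the whole class (black) and within cluster 3 (grey); the red dashed line is the median of all measured genes (-0.18) and dotted lines mark 1.5-fold. Stx11 moves from 1.39 to 0.80 and Snap23 from 1.0 to 0.54 when only cluster 3 is compared.

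The neutrophil class differed in makeup between the libraries. Cluster 3, led by Stfa2l1, G0s2 and Cxcr2, held 360 WT cells and 819 of the library labelled Otud1-/-. Cluster 12, led by Lcn2, Retnlg and S100a8, held 496 and 42, and cluster 25, with Ngp and Camp, 46 and 0. Within cluster 3, Stx11 stood at 269 CPM in WT and 470 CPM in the other library (log2 ratio 0.80, 0.60 to 1.01) and Snap23 at 340 and 494 CPM (0.54, 0.36 to 0.72). Vamp4 had the highest ratio there, 25 and 59.2 CPM (1.23, 0.60 to 1.95), and Snap29 the lowest, 36.4 and 16.4 CPM (-1.12, -1.82 to -0.46). Nsf was at 60.3 and 39.0 CPM (-0.62, -1.11 to -0.13), and Stx6 at 65.9 and 75.3 CPM (0.19, -0.23 to 0.63). Of 23 measured members 3 were higher (Vamp4, Stx11 and, with an interval that reached 0, Stx12) and 2 lower, where 7.93% of 3847 genes were higher and 18.6% lower. In cluster 12, with few cells in the library labelled Otud1-/-, Stx11 was at 96.3 and 256 CPM and Snap23 at 147 and 139 CPM. In WT both genes were lower in cluster 12 than in cluster 3.

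Marker sets of other classes also moved, in both directions, between neutrophils of WT and of the library labelled Otud1-/-. Among those higher in the latter were the erythroid (83.1 and 454 CPM) and monocyte/macrophage (6763 and 7760) sets. Among those lower were the NK (143 and 20.7 CPM) and plasma (319 and 176) sets, and the B and T sets that follow. The 13 B cell marker genes summed to 1774 CPM in WT neutrophils (64.0% of their level over the whole library, none at 0) and to 459 CPM in the others (15%, none at 0). The 24 T cell marker genes summed to 791 CPM (43.6%, none at 0) and 92.8 CPM (7.32%, 1 at 0). The median ribosomal share was 17.5% and 4.11%, and the median mitochondrial share 3.08% and 0.293%. In neutrophils without a UMI of these 37 marker genes, 137 of WT and 449 of the other library, Stx11 stood at 291 and 496 CPM (log2 ratio 0.77, 0.44 to 1.11) and Snap23 at 403 and 524 CPM (0.38, 0.10 to 0.67). In those cells the median of the members was -0.04 and that of all genes 0.04. Among these cells and within cluster 3, Stx11 stayed past 1.5-fold and Snap23 did not, though its intervals stayed above 0. The part of RNA of lymphocytes or of other cells in the remaining difference was not tested.

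**Figure D4:**
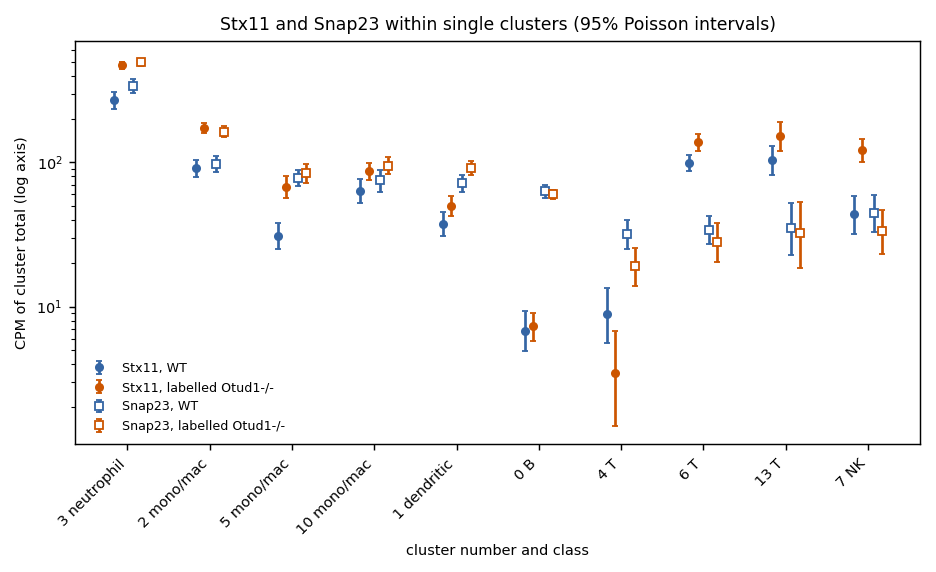
Level of Stx11 (filled circles) and Snap23 (open squares) in the single clusters of the 6 classes with at least 100 cells in both libraries, as CPM of the cluster total on a log axis with 95% Poisson intervals, WT in blue and the library labelled Otud1-/- in orange. Unnamed clusters are not shown. Cluster 3 (neutrophil) is highest for both genes, and T cluster 4 lies far below T clusters 6 and 13 for Stx11.

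In monocyte/macrophages 26 genes were measured, and 2 were higher and 0 lower, where 5.37% of 5235 genes were higher and 3.84% lower. The median was 0.13, against 0.04 over all genes. Stx11 was at 59.2 and 120 CPM (log2 ratio 1.01, 0.85 to 1.18) and Stx3 at 21.4 and 39.5 CPM (0.87, 0.60 to 1.17). Snap23 followed at 84.1 and 122 CPM (0.54, 0.39 to 0.69), short of 1.5-fold, and the late endosomal Stx8 at 46.9 and 56.0 CPM (0.25). The lowest ratios were small: -0.18 for Vamp2, -0.08 for Napg, -0.05 for Sec22b and -0.04 for Gosr2. Stx11 was higher in each of the 3 clusters of the class. It stood at 91.3 and 173 CPM in cluster 2 (Vcan, F13a1 and Chil3), at 31.0 and 67.6 CPM in cluster 5 (Cfb, C1qa and Cxcl9), and at 63.7 and 86.8 CPM in cluster 10 (Retnla, Pf4 and Mrc1). For Snap23 the same clusters gave 97.7 and 163, 78.3 and 83.9, and 75.1 and 94.8 CPM. Marker sets of other classes moved both ways here too. Neutrophil marker genes summed to 7434 CPM in WT monocyte/macrophages and 15069 CPM in the other library, with none of the 17 at 0. These sums were 107% and 100% of their level over the whole library. Lower in the library labelled Otud1-/- were the B (1227 and 654 CPM), T (889 and 554) and plasmacytoid dendritic (828 and 694) sets. The part of these differences in the ratios was not tested. After thinning, the share of cells with a Stx11 UMI was 6.33% (5.33% to 7.46%) and 9.87% (7.62% to 12.5%), and unthinned, at median depths of 2182 and 9973 UMIs, it was 14.2% and 53.2%.

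In NK cells 27 genes were measured, and 5 were higher and 1 lower, where 6.64% of 5105 genes were higher and 10.3% lower. The median was -0.04, against 0.01 over all genes. Stx11, which NK cells need to release lytic granules, was at 43.7 and 121 CPM (45 and 124 UMIs, log2 ratio 1.46, 0.97 to 2.0). The other higher genes were Stx8 (40.8 and 67.6 CPM, 0.72, 0.16 to 1.32), Vti1b (44.6 and 72.4 CPM, 0.69, 0.15 to 1.26), Stx6 (27.2 and 44.1 CPM, 0.69, -0.01 to 1.43) and Vamp7 (15.5 and 24.5 CPM, 0.64, -0.31 to 1.66), the last 2 with intervals that reached 0. Of the late endosomal SNAREs, Stx8 and Vti1b were thus higher, Stx7 was at 30.1 and 33.3 CPM (0.14, -0.60 to 0.90), and Vamp8 at 107 and 87.1 CPM (-0.29, -0.71 to 0.12). The lower gene was Vamp2 (41.7 and 27.4 CPM, -0.60, -1.35 to 0.11), followed by Nsf (-0.51), Snap23 (-0.42) and Gosr2 (-0.39), all with intervals across 0. With TMM factors 5 were higher and 0 lower, beside 9.50% and 8.40% of all genes. Marker sets of other classes moved both ways between NK cells of WT and of the library labelled Otud1-/-. Among those higher in the latter were the dendritic (13560 and 18466 CPM), ILC2 (307 and 373) and mast cell/basophil (215 and 238) sets. The dendritic set includes Ccl5 and reached only 3102 and 3518 CPM in the dendritic class itself. Its sum in NK cells therefore cannot be read as dendritic cell RNA. Among the sets lower in the library labelled Otud1-/- were the T (1855 and 1629 CPM), plasma (249 and 170) and plasmacytoid dendritic (555 and 361) sets, and the 3 that follow. The 13 B markers summed to 1408 CPM in WT and 318 CPM in the other library (none at 0 in either), the 26 monocyte/macrophage markers to 1847 CPM (2 at 0) and 891 CPM (8 at 0), and the 17 neutrophil markers to 583 CPM (none at 0) and 350 CPM (3 at 0). The 14 NK markers themselves summed to 8770 and 13455 CPM, with none at 0. The part of these differences in the NK ratios was not tested. Among cells with a Y-linked UMI and no Xist UMI, a choice that bears on the sex-linked difference, Stx11 in NK cells had 15 UMIs in WT and 85 in the other library, a log2 ratio of 0.66 (-0.14 to 1.57), and Vti1b a log2 ratio of 0.08 (-0.79 to 1.05). In neutrophils and monocyte/macrophages the same restriction gave 1.21 and 0.92 for Stx11.

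Dendritic, B and T cells showed few differences past 1.5-fold. In dendritic cells 26 genes were measured, 0 higher and 1 lower, where 2.19% of 4890 genes were higher and 7.96% lower, and the median was 0.03, against -0.08 over all genes. The lower gene was the Qb SNARE Vti1a, at 26.0 and 15.8 CPM (log2 ratio -0.70, -1.23 to -0.21). Then came Vamp2 (33.0 and 22 CPM, -0.57), Stx5a (-0.33) and Stx6 (-0.26). The highest ratios were those of Stx12 (48.7 and 69.2 CPM, 0.50, 0.21 to 0.80), Stx11 (41.1 and 53.4 CPM, 0.37, 0.05 to 0.71), Snap23 (75.3 and 96.5 CPM, 0.35, 0.12 to 0.60) and Stx16 (0.21). With TMM factors, which moved the median of all genes by 0.17 in dendritic cells and 0.10 in B cells, Stx12 passed the fold and Vti1a no longer did. This gave 1 higher and 0 lower in dendritic cells, beside 5.61% and 4.24% of all genes.

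In B cells 24 genes were measured, 0 higher and 0 lower, where 0.565% of 5135 genes were higher and 1.89% lower. The median was 0.05, against -0.04 over all genes. The ratios ran from -0.40 for Vamp2 (52.9 and 40.1 CPM, -0.61 to -0.19) to 0.37 for Napa (60.4 and 78.2 CPM, 0.19 to 0.55). Vti1b came next to Napa with 0.36, then Stx16 with 0.17 and Vti1a with 0.16. Stxbp2 (-0.18), Gosr2 (-0.17) and Stx7 (-0.14) followed Vamp2. Snap23 stood at -0.07 (-0.26 to 0.11) in B cells.

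In T cells 26 genes were measured, 0 higher and 1 lower, where 0.776% of 5282 genes were higher and 3.94% lower. The median was -0.02, against -0.03 over all genes. The class had a different makeup in each library: cluster 4 was 33.1% of WT and 51.5% of the other T cells, cluster 6 was 40.9% and 26.0%, and cluster 13 was 15.8% and 10.9%. Cluster 19, led by Gzmk, Klrc1 and Cd8a, was 2.82% and 10.0% (57 and 92 cells). Cluster 15, led by Gzmb and histone genes, was 7.43% and 1.64% (150 and 15 cells). Stx7 was the lower gene, at 30.6 and 17.8 CPM (log2 ratio -0.76, -1.16 to -0.41). It no longer passed 1.5-fold without doublet removal (-0.53, -0.87 to -0.23) or in cells with a Y-linked UMI and no Xist UMI (-0.53, -1.11 to 0.04). Within cluster 6, the only one of clusters 4, 6 and 13 in which it was measured, Stx7 stood at 40.1 and 24.8 CPM (-0.68, -1.27 to -0.13). It was at 23.0 and 9.53 CPM in cluster 4 (57 and 22 UMIs) and at 21.1 and 28.6 CPM in cluster 13 (15 and 14 UMIs). Snap23 (31.5 and 23.2 CPM, -0.43), Stxbp2 (-0.35) and Gosr2 (-0.31) came next. Stxbp3 (33.9 and 45.5 CPM, 0.42, 0.15 to 0.70), Stx11 (0.28, 0.07 to 0.50; 0.48 within cluster 6, 0.55 within cluster 13 and, from 22 and 8 UMIs, -1.24 within cluster 4), Bet1l (0.28) and Napg (0.27) had the highest ratios. Monocyte/macrophage marker genes summed to 1510 CPM in WT T cells and 1014 CPM in the other library, with none of 26 at 0, and B cell markers to 1800 and 1069 CPM. The NK markers went the other way, at 416 and 812 CPM. The part of makeup and of these marker differences in the Stx7 and Stx11 values was not tested.

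**Figure D5:**
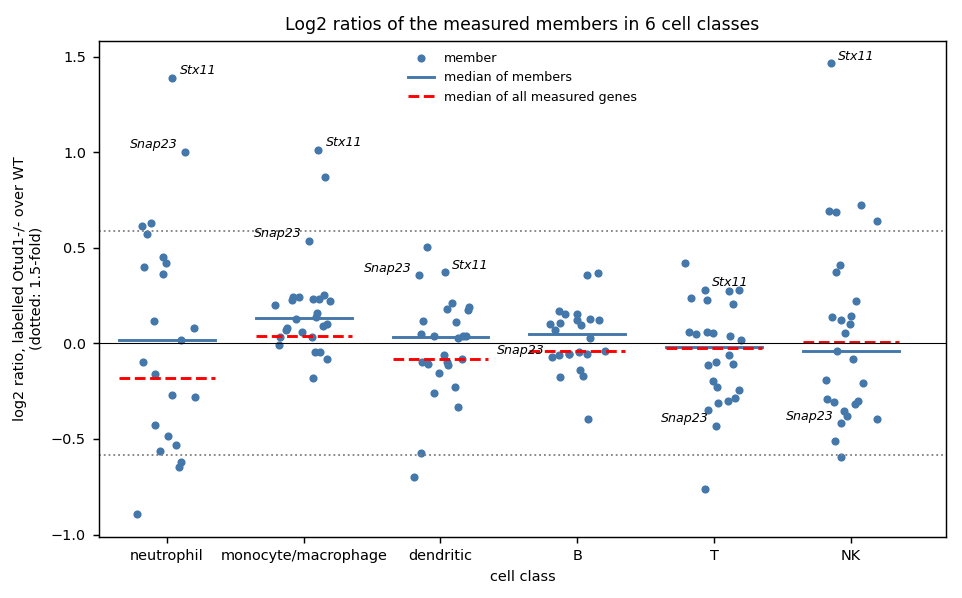
Log2 ratio (library labelled Otud1-/- over WT) of each measured member (points) in 6 cell classes, with the median of the members (blue line), the median of all measured genes (red dashed line) and 1.5-fold marked by dotted lines; sideways position within a class has no meaning. Stx11 is the top point in neutrophils (1.39), monocyte/macrophages (1.01) and NK cells (1.46), and no point passes 1.5-fold in B cells.

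Other genes of the fusion pathway were taken from 4 lists: tethering complexes with their Sec1-type partners, the exocyst, granule docking and priming genes, and SNARE genes with other symbols. Of their 57 genes 8 were measured in neutrophils, 3 of them higher and 1 lower, beside 16.3% and 32.6% of all genes measured, and their median log2 ratio was -0.22, against -0.18. The higher genes were Vps18, a tether subunit of late endosomes (37.2 and 86.8 CPM, 1.21, 0.85 to 1.62), Rab27a, which docks granules at the plasma membrane (27.4 and 48.0 CPM, 0.80, 0.35 to 1.29), and Lyst, a regulator of lysosome-related granules (328 and 505 CPM, 0.62, 0.49 to 0.76). Scfd1, which acts between endoplasmic reticulum and Golgi, was the lower gene (33.0 and 13.2 CPM, -1.29, -1.92 to -0.74). The 3 exocyst genes measured, Exoc1, Exoc3 and Exoc5, had ratios of -0.24, -0.30 and -0.43. In the other 5 classes 9 to 14 of the 57 genes were measured, none higher or lower apart from Rab27b in NK cells (23.3 and 36.2 CPM, 0.63, -0.14 to 1.44). The shares of all genes that were higher there ran from 0.565% in B cells to 6.64% in NK cells, and of those lower from 1.89% in B cells to 10.3% in NK cells. Within neutrophil cluster 3, Rab27a stood at 38.7 and 48.6 CPM (0.33, -0.22 to 0.91) and Lyst at 523 and 529 CPM (0.02, -0.13 to 0.17), neither past 1.5-fold. Vps18 was at 46.6 and 91.7 CPM there (0.97, 0.50 to 1.49), Scfd1 at 28.4 and 11.6 CPM (-1.25, -2.08 to -0.48) and Exoc1 at 34.1 and 19.8 CPM (-0.77, -1.44 to -0.09), so that 1 of the 8 genes was higher and 2 were lower.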

How the data were processed

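The authors deposited unnormalised UMI counts for each gene in each barcode, per the file headers, which name Cell Ranger 6.0.1; the submitters' processing notes name Cell Ranger 5.0.0, Seurat 3.2.3 and mm10. Barcodes passed with 200 or more genes and mitochondrial UMIs of 15% or less. A Scrublet-type doublet score marked 0 WT cells and 3 of the other library automatically, so the highest scores at 0.8% per 1000 barcodes were removed (1355 and 450 cells). Both libraries were clustered together in scanpy 1.11.5 (2000 variable genes without the 47, 30 components, 20 neighbours, Leiden resolution 1). A cluster took a class name from at least 3 marker genes among its top 50. Unnamed clusters held 1354 and 405 cells.

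Counts were summed per class and library and scaled to CPM of the class total. Ratios use a prior of 0.5 CPM and conditional binomial intervals, levels exact Poisson intervals, shares Clopper-Pearson intervals. Genes named were the exocytic ones, whatever their values, the 3 with the highest level and the 4 with the highest and lowest ratio in each class. A value under 10% of another class's may be background RNA. The ratio step was tested on simulated data. The members and lists were chosen with earlier results of these data known. Other scalings, minimum levels, filters, doublet and cell choices were tried. Promoters came from RefSeq tables. The values of 1 gene enter the totals and are not reported here.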

Additional observations from a re-analysis of the deposited data

Results flagged for a closer look

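For 3 of the genes, the ratio between the libraries (labelled Otud1-/- over WT) lay above 0 in some cell classes and below 0 in others, with counting intervals that did not reach 0. The difference between classes was not tested, since there is 1 library per genotype. The log2 ratio of Snap23 was 1.0 in neutrophils, 0.54 in monocyte/macrophages and 0.35 in dendritic cells, and -0.43 in T cells, where its level was low enough to be RNA of other cells in the library labelled Otud1-/-. The log2 ratio of Stx7 was 0.16 in monocyte/macrophages, -0.62 in neutrophils and -0.76 in T cells. The log2 ratio of Vamp8 was 0.23 in monocyte/macrophages and 0.18 in dendritic cells, and -0.30 in T cells, where it was 0.066 (-0.22 to 0.36) in cells with a Y-linked UMI and no Xist UMI.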

How the results depend on the processing

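No paired analysis was possible because each genotype has 1 library. Stx11 in neutrophils stayed past 1.5-fold under every setting tried, with log2 ratios from 0.77 (cells with no UMI of the B and T marker genes, a choice made after seeing the data) to 1.96 (TMM factors). Snap23 there ranged from 0.38 to 1.57 under the same settings and passed 1.5-fold in all but the first. Within neutrophil cluster 3 alone Snap23 was at 0.54, also short of 1.5-fold. The count of members at least 1.5-fold higher in neutrophils, 4 of 23 as reported, was 12 of 27 with TMM factors and 7 of 23 with the median of gene-wise ratios. It was 2 of 25 with no doublet removal and 2 of 23 with Y-linked, Xist-free cells only. Over all genes the shares higher were 39.1%, 22.9%, 12.3% and 15.3% in these settings, and 16.3% as reported. The count lower in neutrophils, 3 of 23 as reported, was 1 with TMM factors (of 27), gene-wise ratios (of 23), no doublet removal (of 25) or cells with no B and T marker UMI (of 23). It was 5 of 23 with the members among the variable genes, and 16 of 45 with no minimum level. Over all genes the shares lower were 17.2%, 27.1%, 26.4%, 18.1%, 33.0% and 49.3% in the same order, and 32.6% as reported. Snap29, Nsf and Stx7 all fell short of the fold with TMM factors. They also did so without doublet removal (-0.43, -0.26 and -0.40) and in cells with no B and T marker UMI (-0.35, -0.22 and -0.33). In those last cells the lower gene was Sec22b (-0.63). TMM factors moved the members' median log2 ratio to 0.46 in neutrophils, 0.21 in dendritic cells and 0.15 in B cells, and Y-linked, Xist-free cells gave 0.29 in NK cells. With no minimum level the higher and lower counts were 8 and 7 of 42 members in NK cells, 1 and 3 of 45 in T cells, and 2 and 7 of 45 in dendritic cells. Of 44 members 2 were lower in B cells, and of 45 members 6 were higher in monocyte/macrophages. The shares of all genes were then 15.6% and 29.9% in NK, 5.76% and 13.9% in T, and 11.6% and 26.6% in dendritic cells. In B cells 10.6% of all genes were lower, and in monocyte/macrophages 7.49% were higher. With a minimum of 40 CPM, 3 of 12 were higher in NK cells and 1 of 15 in monocyte/macrophages, beside 5.77% and 6.08% of all genes. There 0 were lower in NK, T and dendritic cells, beside 6.92%, 3.43% and 5.55%. With TMM factors 1 of 26 was higher in dendritic cells (5.61% of all genes), and 0 were lower in NK (8.40%) and dendritic cells (4.24%). Without doublet removal 0 were lower in NK (8.70% of all genes), T (3.16%) and dendritic cells (7.98%). With at most 5% mitochondrial UMIs 0 were lower in dendritic cells (7.91%). Without the highest cell of each gene 2 of 26 were lower in dendritic cells (8.42% of all genes). In Y-linked, Xist-free cells 4 of 28 were higher in monocyte/macrophages (5.91% of all genes). Of the same cells, 3 of 18 were lower in NK cells (13.7%), 2 of 25 in dendritic cells (10.3%) and 0 of 25 in T cells (4.45%). The direction turned for Vamp8 in T cells (0.066 in Y-linked, Xist-free cells) and for Napa in neutrophils (-0.14 in cells with no B and T marker UMI). By construction more genes enter with no minimum level, fewer with the higher minimum, more cells without doublet removal and fewer with the cell restrictions. Beyond this the cause was not tested. NK values rest on 533 and 210 cells and on few UMIs per gene.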
